A study of Mus musculus with 12 samples.

Results

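The nuclear genes for the subunits of the mitochondrial oxidative phosphorylation system were followed in the RNA of 12 B16-F10 tumors. Genes were taken by symbol, as the Nduf genes of the a, b, c, s and v series, the genes Sdha to Sdhd, and all genes whose symbols begin with Uqcr, Cox4 to Cox8 or Atp5. This gave 84 of the 23420 genes in the count table, of which 80 had enough reads to be tested. Of the 84 genes, 73 encode subunits used in most tissues and are called core subunits here: 35 in complex I, 4 in complex II, 8 in complex III, 11 in complex IV and 15 in complex V. Ndufa4 was counted with complex IV, where its protein belongs. The muscle isoforms Cox6a2, Cox7a1 and Cox8b were kept apart, as were 8 other isoforms and associated proteins, such as Cox4i2 and Atp5s.

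Complexes I to IV form the respiratory chain of the inner mitochondrial membrane. Complex I takes electrons from NADH and complex II from succinate, complex III passes them to cytochrome c, and complex IV hands them to oxygen. Complexes I, III and IV pump protons, and complex V, the ATP synthase, uses the returning protons to make ATP. Most subunits are encoded in the nucleus, and nuclear respiratory factors with coactivators of the PGC-1 family are known to drive many of their genes together. In melanoma, PGC-1α marks tumors with high oxidative metabolism.

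B16-F10 is a melanoma cell line from C57BL/6 mice, and the cells were implanted under the skin of male C57BL/6J mice. Nonobese mice had been fed a control diet, and obese mice a cholesterol-supplemented Western diet for 15 weeks, the time given for males. Once tumors could be felt, mice of both kinds received anti–PD-1 (clone 29F.1A12) or an isotype control antibody (clone 2A3), each at 10 mg/kg. Each of the 4 groups had 3 tumors. The tumors are bulk tissue of a single cell line with host cells, so fewer cells of a type and less RNA per cell cannot be told apart. Summed counts ranged from 14022929 to 33871843 per tumor. The summed level of 8 melanocyte markers was between 26045 and 31886 CPM (the standard count unit scaled to library size, here with TMM factors) in all 12 tumors. The 13 subunits encoded in mitochondrial DNA were not among the genes of the table and were not analysed here.

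The core subunits were among the more abundant transcripts of these tumors. Their median level was 155 CPM per kb of transcript, against 8.35 for all genes tested that had a length. Complex IV had the highest median (349 CPM per kb), followed by complex V (231), complex III (206), complex II (140.3) and complex I (109). Atp5b, the catalytic β subunit of the ATP synthase (chr10:128083307-128090388, GRCm38), had the highest level of all, 1239 CPM per kb, which ranked 33 among 12994 genes. It was followed by Atp5g3, which encodes the proton-carrying c-ring (695 CPM per kb), the peripheral stalk subunit Atp5o (685) and Cox4i1, the common form of complex IV subunit 4 (659). In complex I the highest was Ndufb9 (354 CPM per kb), in complex II the iron-sulfur subunit Sdhb (399.9) and in complex III Uqcr10 (435). At the low end stood Sdhc (52.8 CPM per kb), Uqcrfs1, the Rieske iron-sulfur protein (85.7), and Cox6c (146).

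**Figure D1:**
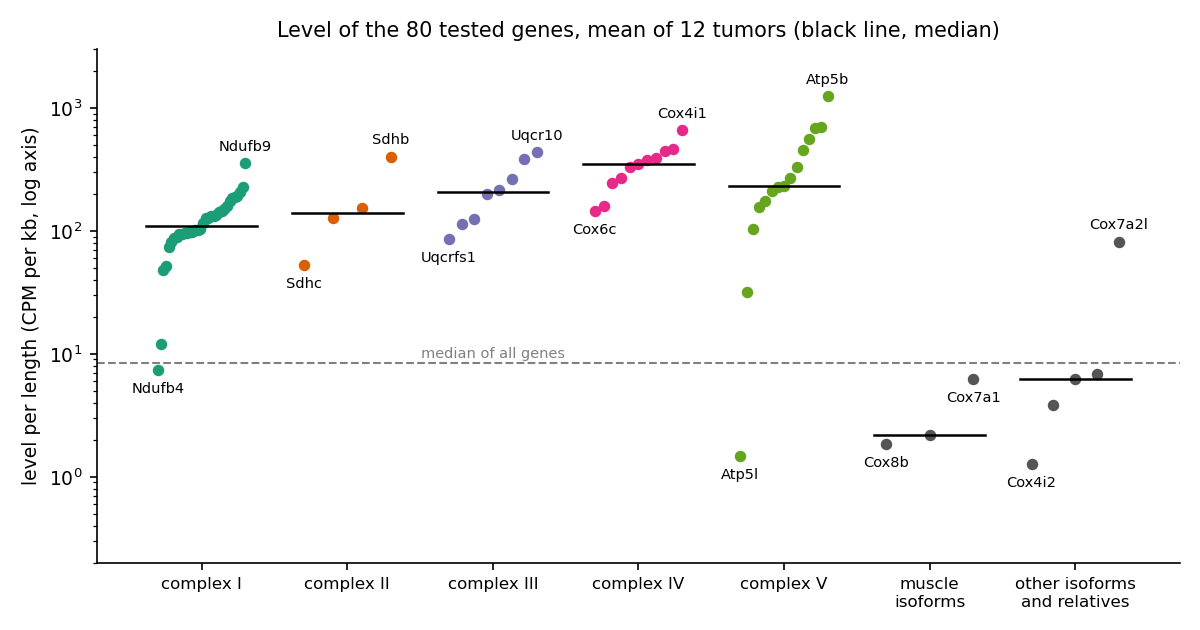
Level per transcript length (CPM per kb, log axis) of the 80 tested genes, each point a gene and its mean over 12 tumors, with black lines at the medians and a dashed line at the median of all genes (8.35). Nearly all core subunits lie above the dashed line, with complex IV highest at a median of 349, while the muscle isoforms lie below it.

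A few subunits went against this. Atp5l, a small subunit of the ATP synthase membrane part, was read at 1.49 CPM per kb, from 8 to 37 counts per tumor. Ndufb4 was at 7.41 CPM per kb, below the median of all genes. Ndufs5, a complex I subunit, had 0 counts in every tumor. Taken alone, 0 counts in a tumor allow up to 3, and 0 in all 12 tumors together allow less. RefSeq lists pseudogenes named after Atp5l and Ndufs5, but also after members at ordinary levels, such as Atp5k (209.9 CPM per kb) and Uqcrh (388). Levels of genes with near-identical copies are uncertain where reads matching more than 1 place are discarded. Lengths are those of the longest coding transcript, so genes such as Ndufb2 (4371 nt) may be understated.

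The windows from 250 bases before to 50 bases after the start, taken from RefSeq for GRCm38.p6, were searched because the core subunits moved together between tumors, as described below. Windows were matched for 61 of the 72 tested core subunits, in 66 windows. The 10-base motif of NRF1, a nuclear respiratory factor, was found on either strand in 17 of these windows (25.8%), against 9.49% of the windows of tested genes and 4.60% of all windows. The YY1 motif AAGATGGC was found in 10 (15.2%, against 4.18% and 2.75%), and the motif CCGGAAG, bound by ETS factors such as GABP, in 16 (24.2%, against 16.9% and 8.86%). At least 1 of these motifs was present in 37 windows (56.1%), against 27.2% of the windows of tested genes. The TATA box letters TATAAA were in 6 (9.09%, against 7.34%). A match is a description of letters, not of a bound site. Whether genes with a match moved more between tumors than genes without was not tested. The 250 bases before the start are shown for the most abundant core subunit per length with a motif there, Cox6a1 for NRF1 and Atp5e for CCGGAAG, and for the muscle isoform Cox7a1, which had no match. Only windows wholly outside the gene were considered for printing, and AAGATGGC was in none of these. Capitals mark the motifs. In Cox6a1 these are 2 NRF1 matches, of which the first reads the same on both strands and the second matches on the opposite strand, and a CCGGAAG on the opposite strand. In Atp5e the CCGGAAG is also on the opposite strand.
Cox6a1, chr5:115348959-115349208, minus strand: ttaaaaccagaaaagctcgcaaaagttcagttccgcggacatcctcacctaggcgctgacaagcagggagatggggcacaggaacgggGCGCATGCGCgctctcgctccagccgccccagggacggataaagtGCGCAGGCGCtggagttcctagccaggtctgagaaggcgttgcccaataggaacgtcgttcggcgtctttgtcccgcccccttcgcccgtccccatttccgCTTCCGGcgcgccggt
Atp5e, chr2:174464102-174464351, minus strand: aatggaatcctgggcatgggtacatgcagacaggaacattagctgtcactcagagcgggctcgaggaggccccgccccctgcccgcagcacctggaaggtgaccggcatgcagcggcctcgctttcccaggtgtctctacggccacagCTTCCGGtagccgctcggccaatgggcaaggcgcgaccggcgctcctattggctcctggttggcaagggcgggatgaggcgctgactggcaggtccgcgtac
Cox7a1, chr7:30183921-30184170, plus strand: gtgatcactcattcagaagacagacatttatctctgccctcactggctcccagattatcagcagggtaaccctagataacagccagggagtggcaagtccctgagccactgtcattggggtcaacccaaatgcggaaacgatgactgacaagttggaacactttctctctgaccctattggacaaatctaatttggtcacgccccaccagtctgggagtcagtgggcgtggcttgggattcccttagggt

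The group means of the summed level of the core subunits lay between 15888 and 16854 CPM. The tumors of 2 groups, nonobese anti–PD-1 and obese isotype, spanned a wider range than these means, and those of the other 2 a narrower one. In nonobese mice with isotype it was 16421, 16859 and 16636 CPM (16639 ± 219, SD, n = 3). With anti–PD-1 it was 19294, 15452 and 12917 CPM (15888 ± 3211, SD, n = 3). In obese mice it was 15233, 19034 and 15345 CPM with isotype (16537 ± 2163, SD, n = 3), and 17178, 16778 and 16607 CPM with anti–PD-1 (16854 ± 293, SD, n = 3). In all, 3 tumors stood apart: nonobese anti–PD-1 replicate 1 and obese isotype replicate 2 were high, and nonobese anti–PD-1 replicate 3 was low. The core subunits took between 1.40% and 1.94% of the counts of a tumor, before scaling.

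**Figure D2:**
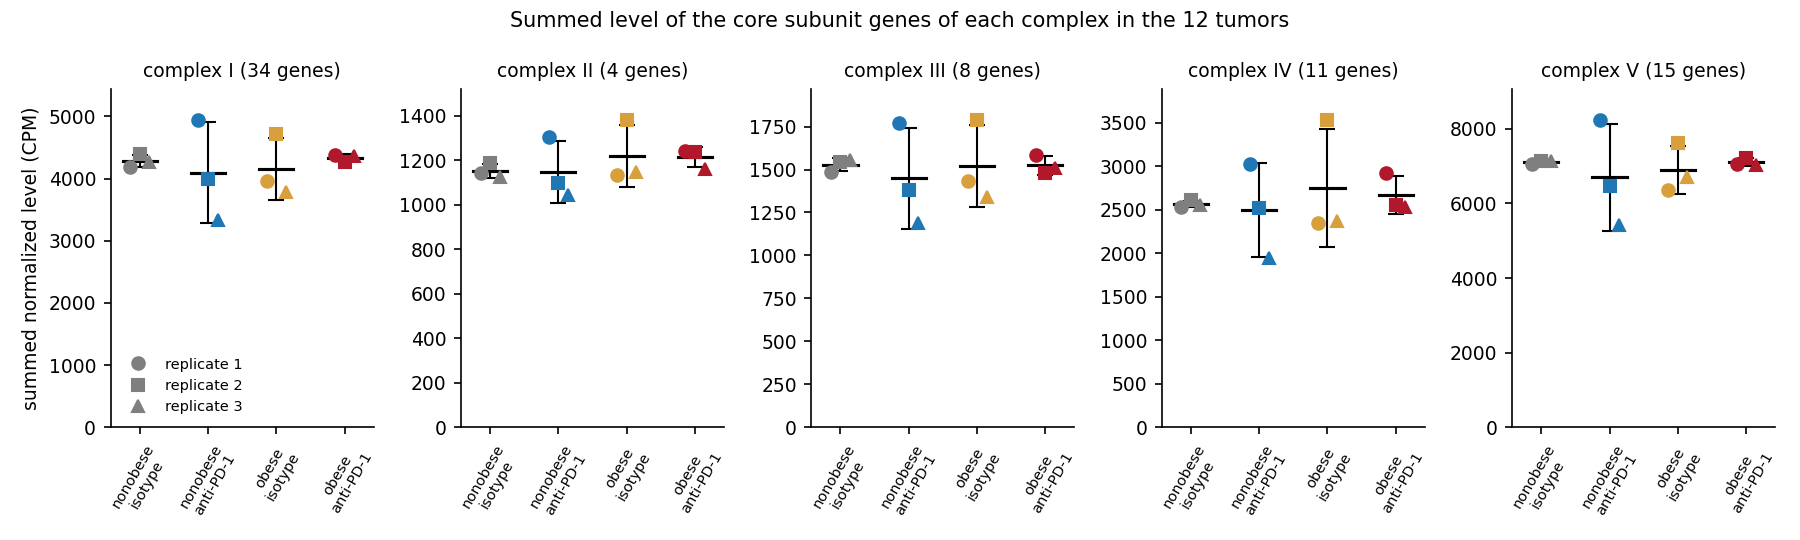
Summed normalized level (CPM, axis from 0) of the core subunit genes of each complex in each tumor; points are tumors, with shape giving the replicate number, black lines are group means and bars are SD (n = 3). Group means range from 15888 to 16854 CPM over all complexes, while nonobese anti–PD-1 replicate 1 (19294 CPM) and replicate 3 (12917) lie far apart.

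The high and low tumors were the same in all 5 complexes. Complex I summed to 4947, 3995 and 3330.3 CPM in the nonobese anti–PD-1 tumors and to 3954, 4714 and 3781 CPM in the obese isotype tumors. Complex V summed to 8244, 6455 and 5411 CPM, and to 6364, 7610.3 and 6702 CPM. Complex IV summed to 3025, 2519.9 and 1941 CPM, and to 2350.0, 3537 and 2374 CPM. In the other 2 groups the sums of each complex varied by at most 1.155-fold, for complex IV in obese anti–PD-1 tumors (2536 to 2928 CPM), with complex V between 7061 and 7134 CPM in nonobese isotype and between 7032 and 7222 CPM in obese anti–PD-1 tumors. Complex III was at 1528 ± 38.8 and 1448 ± 296 CPM (SD, n = 3) in nonobese tumors, first with isotype and then with anti–PD-1, and at 1520.2 ± 238 and 1525 ± 54.3 CPM in obese tumors. In the same order, complex II was at 1151 ± 32.02, 1149 ± 139, 1221.5 ± 139.7 and 1215 ± 46.3 CPM (SD, n = 3).

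Gene by gene, nonobese anti–PD-1 replicate 1 was the highest of its group for 69 of 72 core subunits, against 35.5% of all genes tested. Replicate 3 was the lowest for 64 of 72, against 41.6% of all genes. Obese isotype replicate 2 was the highest of its group for 65 of 72, against 34.6%. An exception in the nonobese anti–PD-1 group was Ndufs1, which carries iron-sulfur clusters of complex I, at 248, 221 and 279 CPM. Atp5b was at 2435, 2318 and 2323 CPM in nonobese isotype, 2879, 2244 and 1829 in nonobese anti–PD-1, 2232, 2539 and 2361 in obese isotype, and 2432, 2508 and 2388 in obese anti–PD-1 tumors. Its lowest and highest values thus both came from nonobese anti–PD-1 tumors, and the groups overlapped.

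The complexes kept nearly fixed proportions to each other. The mean log2 CPM of complex V was above that of complex I by 0.92 to 1.03 in the 12 tumors, and that of complex III by 0.71 to 0.83. Complex II departed from this in nonobese anti–PD-1 replicate 3, where it was 1.60 above complex I on the log2 scale, against 1.29 to 1.501 in the other 11 tumors. It also differed between diets with isotype, at 1.29 to 1.35 in nonobese and 1.44 to 1.501 in obese tumors, without overlap. With anti–PD-1 the ranges overlapped, at 1.30 to 1.60 in nonobese and 1.31 to 1.42 in obese tumors. With 3 tumors a group, this difference was not tested. Complex II has 4 genes with a median length of 2065.5 nt, against 939.5 nt in complex I. In nonobese anti–PD-1 replicate 3 the median deviation from the group mean was -0.12 for complex II and -0.30 for complex I. With scaling within length classes, described below, it was -0.068 and -0.15. Complex IV departed in obese isotype replicate 2, where it was 1.30 above complex I against 0.98 to 1.16 elsewhere. The complex IV subunits Ndufa4 and Cox7b, chosen after their values were seen, show it. Ndufa4 was at 206, 474 and 294 CPM and Cox7b at 165, 378 and 222 CPM in the obese isotype tumors. Within each of the other 3 groups no tumor reached the value of obese isotype replicate 2 for either gene.

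Transcript length moved with these differences. The core subunits are short, with a median of 863 nt against 3092 nt for all genes with a length. In nonobese anti–PD-1 replicate 1 the median deviation from the group mean was 0.19 (log2 CPM) for all genes of up to 1000 nt and fell along the length classes to -0.078 for genes over 6000 nt. In replicate 3 it was -0.18 for genes of up to 1000 nt and 0.0037 for those over 6000 nt. In obese isotype replicate 2 these values were 0.23 and -0.21. Core subunits of up to 1000 nt (42 genes) deviated by 0.30, -0.33 and 0.31 in the same 3 tumors. Core subunits of over 1500 and up to 2500 nt (14 genes) deviated by 0.29, -0.26 and 0.15, against 0.035, 0.0046 and 0.087 for all genes of that length. After scaling within 6 length classes, an alternative chosen after seeing the data, the median deviation of the 72 core subunits was 0.15, -0.15 and 0.060, compared with 0.30, -0.29 and 0.26 before. Obese isotype replicate 3, which did not stand apart, also varied with length. Its genes of up to 1000 nt had a median deviation of -0.17 and those over 6000 nt of 0.24. The core subunits of that tumor deviated by -0.13 before the scaling within length classes and by 0.019 after it. The part of library differences in these values was not tested.

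**Figure D3:**
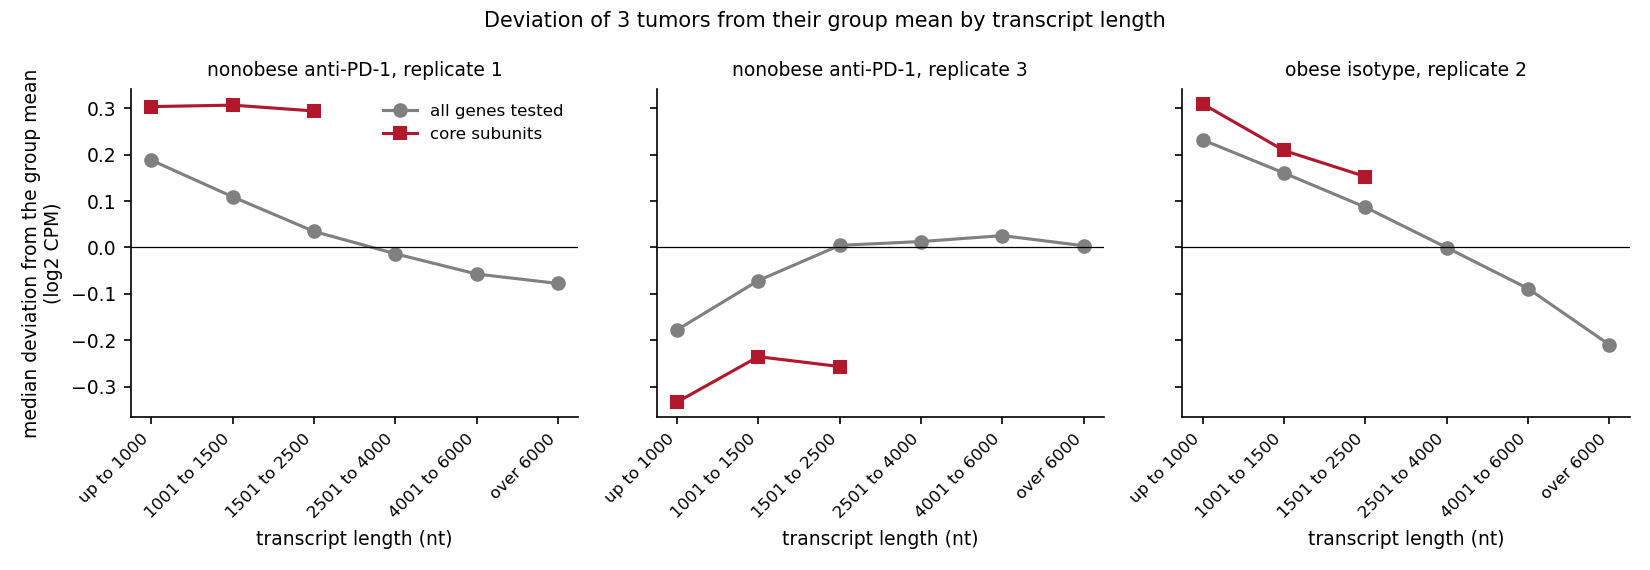
Median deviation from the group mean (log2 CPM) by transcript length class (nt) in the 3 tumors that stood apart, for all genes tested (gray circles) and for core subunits (red squares, classes with at least 10 genes). Short genes of all kinds moved in the direction of the core subunits, which at over 1500 and up to 2500 nt deviated by 0.29 and -0.26 in the nonobese anti–PD-1 tumors while all genes of that length stayed near 0.

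Markers of host cells also differed between these tumors, but only in part in the reverse order of the core subunits. The summed level of 6 fibroblast markers was 261, 525 and 527 CPM in the nonobese anti–PD-1 tumors and 994, 194 and 1070.1 CPM in the obese isotype tumors, so that it was lowest where the core subunits were highest. The summed level of 10 skeletal muscle markers was 8.90, 215 and 390.0 CPM, and 12.1, 21.0 and 141 CPM, so that in obese isotype tumors it was lowest in replicate 1. Endothelial markers (6 genes) summed to 114, 142 and 176 CPM, and to 166, 87.5 and 149 CPM. Myeloid markers (7 genes) summed to 131, 160 and 191 CPM, and to 273, 160 and 200 CPM. Both of these sums were lowest where the core subunits were highest. Melanocyte markers summed to 30087 (replicate 1), 26732 and 26505 CPM in the nonobese anti–PD-1 tumors, and to 29823, 28270 and 30922 CPM in the obese isotype tumors, where the tumor with the most core subunit RNA had the least. In nonobese isotype tumors, fibroblast markers ranged from 581 to 2757 CPM and muscle markers from 19.4 to 382 CPM, while the core subunits stayed between 16421 and 16859 CPM. Obese isotype replicate 2 was also the smallest library, with 14022929 counts. The part of cell content in the core subunit levels was not tested.

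Which subunits responded to anti–PD-1 in nonobese mice was asked first. None of the 80 tested genes passed an unadjusted P of 0.05 in edgeR's quasi-likelihood F-test, against 5.23% of all genes. The median log2 fold change of the core subunits was -0.050, against 0.024 for all genes. Of the 72, 26 were higher, against 55.0% of all genes. By complex the medians were -0.068 (I), 0.014 (II), -0.076 (III), -0.034 (IV) and -0.048 (V). The smallest P belonged to Atp5o, which couples the ATP synthase stalk to its catalytic head (chr16:91925223-91931630), at 601, 661 and 671 CPM with isotype and 688, 506 and 408 CPM with anti–PD-1. Its log2 fold change was -0.27 (SE 0.16, unadjusted P = 0.111, FDR = 0.929 by edgeR) and the groups overlapped. No core subunit separated the groups upward or downward, against 5.81% and 5.37% of all genes. The 95% interval of the change lay within 2-fold for 71 of 72 core subunits, all but Atp5l, and within 1.5-fold for 66, so that a 2-fold change lay outside the interval of these genes.

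That result depended on the tumors of the anti–PD-1 group. Without nonobese anti–PD-1 replicate 1, the median of the core subunits was -0.21, and 14 members were lower at an unadjusted P below 0.05, against 3.72% of all genes in that direction. They were 7 of complex I, 1 of complex III, 2 of complex IV and 4 of complex V, with Atp5o at -0.50 (unadjusted P = 0.00218, FDR = 0.565 by edgeR). None had an FDR below 0.05. Without replicate 3 the median turned to 0.060 and no member passed, against 5.68% of all genes. Without replicate 2 the alternative isoform Ndufa4l2 was lower (log2 fold change -0.75) at an unadjusted P below 0.05, against 2.58% of all genes. The whole group was used as the result, since no tumor has a label that sets it apart. In this comparison 5 of 6 fibroblast markers were lower at an unadjusted P below 0.05, against 3.59% of all genes (261 to 527 CPM summed with anti–PD-1, 581 to 2757 with isotype), as were 7 of 7 myeloid markers (131 to 191 against 199 to 427 CPM). So were 3 of 8 white adipocyte, 1 of 7 T and NK cell and 1 of 6 endothelial markers, and their part was not tested.

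In obese mice the response to anti–PD-1 was also small in all complexes. None of the 80 genes passed, against 7.57% of all genes. The core median was 0.017 against -0.012 for all genes, with 40 of 72 higher, against 47.6% of all genes. Medians were 0.074 for complex I, -0.080 for complex II, 0.025 for complex III, -0.040 for complex IV and 0.022 for complex V. Ndufv3, an accessory subunit of the NADH-oxidizing module of complex I (chr17:31520115-31531326), had the smallest P among core subunits. It was at 207, 217 and 185 CPM with isotype and 257, 211 and 269 CPM with anti–PD-1, a log2 fold change of 0.27 (SE 0.17, unadjusted P = 0.134, FDR = 0.739 by edgeR), and the groups overlapped. Ndufv3 passed with only the 6 tumors compared (0.29) and without nonobese anti–PD-1 replicate 3 (0.28), a tumor outside this comparison. Of all genes, 7.42% and 10.1% passed in these fits. In 3 genes, all of complex I, every anti–PD-1 tumor was above every isotype tumor, against 5.45% of all genes, and in none were all below, against 7.0%. The interval lay within 2-fold for 71 of 72 core subunits and within 1.5-fold for 65. The sign of the median depended on the isotype tumors. Without obese isotype replicate 1 the median was -0.023 (all genes, 0.0018) and 27 of 72 were higher. Atp5s and Ndufa4 were then lower at an unadjusted P below 0.05, against 8.35% of all genes in either direction. Without replicate 3 the median was -0.033 (all genes, 0.011), 27 were higher and none passed, against 10.8%. Without obese anti–PD-1 replicate 1 Atp5s was lower (-0.55), against 8.63% of all genes. Without obese isotype replicate 2 the median was 0.15 (all genes, 0.0021) and 68 of 72 were higher. In that fit 1 member, Ndufa5, was higher at an unadjusted P below 0.05, against 3.27% of all genes. In this comparison 8 of 8 white adipocyte markers (40.2 to 88.8 against 21.9 to 28.3 CPM summed), 6 of 7 T and NK cell markers and 3 of 7 myeloid markers were higher at an unadjusted P below 0.05, against 4.3% of all genes, and their part was not tested. The core subunits were at 15233 to 19034 CPM with isotype and 16607 to 17178 CPM with anti–PD-1.

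Diet was compared in isotype-treated mice. This was the only comparison in which members passed, 2 of 80 (Atp5s higher, Cox6a2 lower) against 13.3% of all genes, and neither is a core subunit. Atp5s, also called Dmac2l, is a relative of a complex I assembly factor and not a structural subunit of the ATP synthase (chr12:69724913-69744665). It was at 5.24, 4.91 and 5.51 CPM in nonobese and 5.59, 9.86 and 7.50 CPM in obese mice. Every obese tumor was above every nonobese tumor, by little for the lowest, against 10.4% of all genes separated upward. The log2 fold change of Atp5s was 0.55 (SE 0.24, unadjusted P = 0.0370, FDR = 0.354 by edgeR). It no longer passed with a replicate block (log2 fold change 0.54) or with only the 6 tumors compared (0.52), and passed in 7 of 12 fits that left out a tumor. The Cox6a2 values are given with the muscle isoforms.

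The core median between diets with isotype was 0.017 against 0.013 for all genes. Of the 72, 41 were higher, against 52.1% of all genes. Complex II (median 0.15) and complex IV (0.13) were above complexes I (-0.0050), III (0.013) and V (0.030). The smallest P among core subunits was that of Ndufv1, the flavin-carrying subunit that oxidizes NADH (chr19:4007499-4012755). It was at 168, 175 and 183 CPM in nonobese and 158, 150.1 and 137 CPM in obese mice. All obese tumors were below all nonobese tumors, with a log2 fold change of -0.24 (SE 0.12, unadjusted P = 0.0610, FDR = 0.399 by edgeR), and it passed in 5 of 11 alternatives, DESeq2 among them. Such a separation downward was seen for 7 of 72 core subunits, 5 of complex I and 2 of complex V, against 9.02% of all genes, and upward for none, against 10.4%. The same isotype tumors moved the median here. Without obese isotype replicate 1 it was 0.059, with Atp5s, Cox6c, Ndufa4 and Sdhd higher and Cox6a2 and Ndufv1 lower at an unadjusted P below 0.05, against 16.5% of all genes. Without replicate 3 it was 0.078, with Sdhc higher, against 14.4%. Without replicate 2 the median was -0.13 (all genes, -0.0068) and 8 of 72 were higher. In that fit 2 members, Cox5b and Ndufa5, were lower at an unadjusted P below 0.05, against 3.31% of all genes. With scaling within length classes 7 members passed: Atp5s and Sdhd higher, and Atp5o, Cox5b, Ndufa11, Ndufs7 and Ndufv1 lower, against 15.6% of all genes. In this comparison 4 of 8 white adipocyte, 3 of 7 myeloid, 2 of 6 endothelial, 1 of 7 T and NK cell and 1 of 6 fibroblast markers were lower at an unadjusted P below 0.05, against 6.17% of all genes, and their part was not tested.

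Between diets under anti–PD-1, no member passed, against 10.3% of all genes. The core median was 0.098, against -0.015 for all genes. Of the 72, 63 were higher, against 46.9% of all genes. The core subunits moved together between tumors, so such counts are not independent observations. Complex medians were 0.10 (I), 0.071 (II), 0.12 (III), 0.12 (IV) and 0.076 (V), and all 4 subunits of complex II and all 11 of complex IV were higher. The smallest P was that of Cox5a, an early-assembling complex IV subunit (chr9:57517328-57532427), at 181, 142 and 142 CPM in nonobese and 189, 179 and 168 CPM in obese mice. Its log2 fold change was 0.21 (SE 0.12, unadjusted P = 0.111, FDR = 0.615 by edgeR), and the groups overlapped. No core subunit separated these groups upward or downward, against 6.54% and 7.06% of all genes. The interval lay within 1.5-fold for 68 of 72. Because this comparison shares the nonobese anti–PD-1 tumors with the nonobese response, it moved with the same tumors. Without replicate 1 the median was 0.24 and 20 members were higher at an unadjusted P below 0.05, against 6.29% of all genes, with Ndufb10 at 0.43 (unadjusted P = 0.00458, FDR = 0.236 by edgeR). Cox5a was among them, at 0.33 (unadjusted P = 0.0132, FDR = 0.270 by edgeR). Without replicate 3 the median was -0.019 and none passed, against 9.62% of all genes. Without replicate 2 Ndufa4l2 was higher (log2 fold change 0.76) at an unadjusted P below 0.05, against 4.63% of all genes. Markers of host cells were higher in the obese mice here at an unadjusted P below 0.05: 8 of 8 for white adipocytes (3 of them at an FDR below 0.05), 7 of 7 for T and NK cells, 7 of 7 for myeloid cells, 3 of 6 for fibroblasts and 1 of 6 for endothelium, against 5.71% of all genes. White adipocyte markers summed to 40.2 to 88.8 against 19.1 to 28.5 CPM, and myeloid markers to 227 to 434 against 131 to 191 CPM. Their part in the core subunit values was not tested.

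The difference between the 2 responses was estimated less precisely. No member passed, against 12.9% of all genes. The core median was 0.069 (all genes, -0.037), with 46 of 72 above 0, against 45.6% of all genes. Medians were 0.096, -0.077, 0.11, -0.027 and 0.065 for complexes I to V. Ndufv3 had the smallest P, with a difference of 0.46 on the log2 scale (SE 0.24, unadjusted P = 0.0826, FDR = 0.455 by edgeR). It passed with DESeq2 (0.48), without nonobese anti–PD-1 replicate 1 (0.64) and without obese anti–PD-1 replicate 2 (0.57). Of all genes, 13.2%, 16.9% and 9.76% passed in these fits. Atp5s was lower without obese anti–PD-1 replicate 1 (-0.75) and without obese isotype replicate 1 (-0.77), Atp5o passed with DESeq2 and Ndufa11 within length classes. The shares of all genes passing there were 14.5%, 13.7%, 13.2% and 14.2%. The nonobese values of Ndufv3 were 244, 256 and 231 CPM with isotype and 262, 234 and 148 CPM with anti–PD-1. The interval lay within 2-fold for 70 of 72 core subunits but within 1.5-fold for only 27. Without nonobese anti–PD-1 replicate 1 the median was 0.25 and 13 members passed upward, against 8.73% of all genes, and without replicate 3 it was -0.020 and none passed, against 11.2%. In the same difference 8 of 8 white adipocyte, 7 of 7 T and NK cell, 7 of 7 myeloid, 5 of 6 fibroblast, 2 of 6 endothelial and 2 of 10 skeletal muscle markers were above 0 at an unadjusted P below 0.05, against 7.01% of all genes, and their part was not tested. No core subunit was past a fold change of 2 with an unadjusted P below 0.05 in any of the 5 comparisons. For all genes that share was 2.42% and 2.44% in the nonobese and obese responses, 1.37% and 4.25% between diets with isotype and under anti–PD-1, and 5.76% in the difference between responses. No member had an FDR below 0.05, against 0.382% of all genes between diets under anti–PD-1 and 0.0% in the other 4 comparisons.

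**Figure D4:**
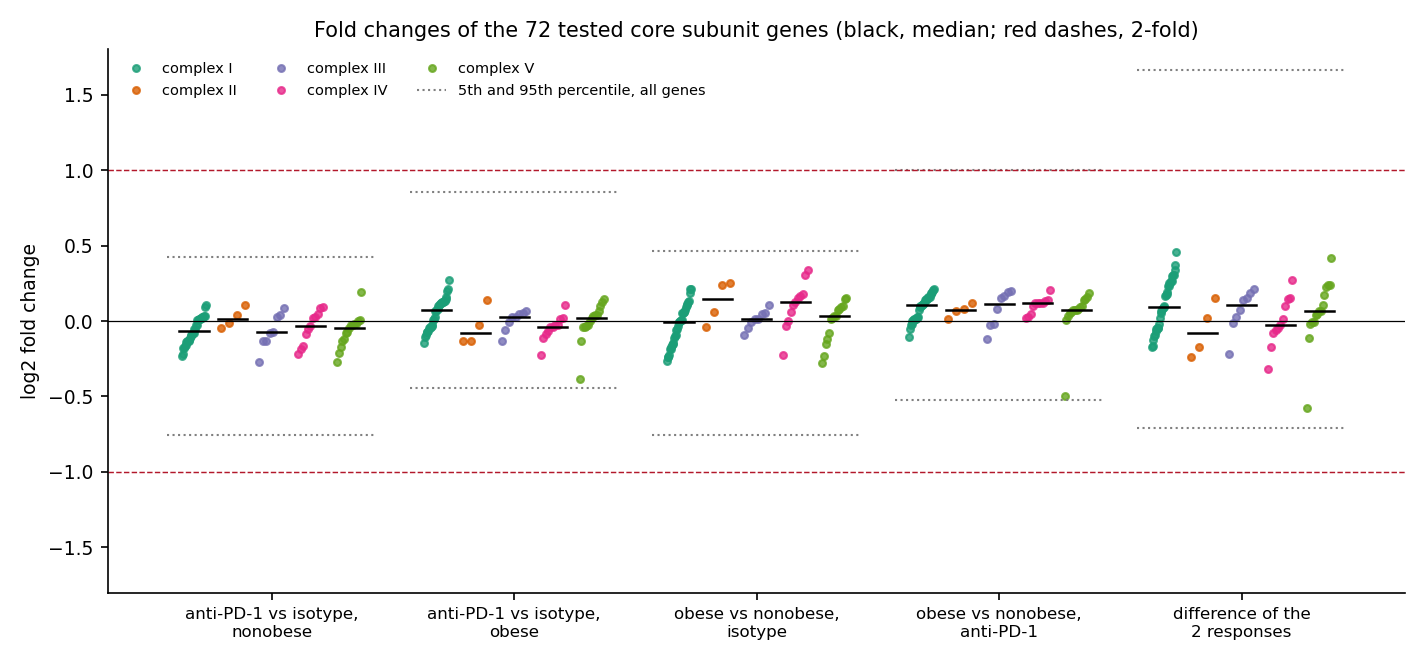
Log2 fold changes of the 72 tested core subunit genes in the 5 comparisons, one point per gene and colored by complex, with black lines at the complex medians, red dashes at a 2-fold change and dotted gray lines from the 5th to the 95th percentile of all genes. All core subunits lie within 2-fold, and the median over all of them ranges from -0.050 to 0.098.

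The catalytic and other central subunits follow by group mean. Given as nonobese mice first, isotype before anti–PD-1 within each diet, the flavin subunit Sdha, which oxidizes succinate, was at 369 ± 7.43, 365 ± 53.5, 359.6 ± 40.2 and 396 ± 19.8 CPM (SD, n = 3). The iron-sulfur subunit Sdhb was at 453 ± 30.5, 438 ± 54.1, 472 ± 71.2 and 463 ± 11.2 CPM. Uqcrc1, a core protein of complex III, was at 370.2 ± 22.7, 351 ± 57.9, 346 ± 38.1 and 344 ± 23.3 CPM, and the Rieske protein Uqcrfs1 at 113 ± 3.01, 115 ± 8.28, 117 ± 20.3 and 122 ± 17.7 CPM. Cox4i1 was at 475 ± 13.4, 483 ± 94.6, 534 ± 101 and 525 ± 20.1 CPM. Atp5a1, the α subunit next to the catalytic Atp5b, was at 1478 ± 10.4, 1349 ± 304, 1328 ± 117 and 1419 ± 46.0 CPM. In complex I, Ndufs1 was at 234 ± 15.3, 249 ± 28.9, 243 ± 10.1 and 231 ± 16.98 CPM and Ndufv2 at 147 ± 8.57, 139 ± 23.4, 153 ± 21.9 and 154 ± 4.51 CPM. Over the 72 core subunits, the ratio of the highest to the lowest group mean had a median of 1.12 and was under 1.2 for 65. For all genes tested the median ratio was 1.21. The core subunits are more abundant than most genes, and the ratios were not matched for abundance.

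The muscle isoforms replace common subunits of complex IV in heart and skeletal muscle. All were low here, at 2.19 (Cox6a2), 6.19 (Cox7a1) and 1.85 (Cox8b) CPM per kb, against 379 for Cox6a1, the common form of Cox6a2. Cox6a2 (chr7:128205435-128206366) was at 1.64, 2.44 and 1.48 CPM in nonobese isotype and 2.03, 1.64 and 1.92 in nonobese anti–PD-1 tumors. In obese isotype tumors it was at 1.18, 0.909 and 1.00 CPM, and in obese anti–PD-1 tumors at 0.846, 1.87 and 0.912 CPM. With isotype all obese tumors were below all nonobese tumors, against 9.02% of all genes separated downward. The log2 fold change of Cox6a2 was -0.84 (SE 0.37, unadjusted P = 0.0404, FDR = 0.361 by edgeR). It no longer passed with a replicate block (log2 fold change -0.80) or within length classes (-0.82), and passed in 8 of 12 fits that left out a tumor. With anti–PD-1 the groups overlapped, and the log2 fold change was -0.61 (SE 0.37, unadjusted P = 0.124, FDR = 0.635 by edgeR). Without obese anti–PD-1 replicate 2 it passed, at -1.08, against 7.16% of all genes in either direction.

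Cox7a1 (chr7:30184171-30186030) was at 1.96, 1.09 and 2.04 CPM in nonobese isotype, 3.05, 1.70 and 1.87 in nonobese anti–PD-1, 2.02, 3.57 and 2.39 in obese isotype and 3.03, 3.15 and 3.33 in obese anti–PD-1 tumors. Its log2 fold change between diets was 0.65 with isotype (unadjusted P = 0.0843, FDR = 0.434) and 0.53 with anti–PD-1 (unadjusted P = 0.144, FDR = 0.663), both by edgeR. The groups overlapped in both. With isotype the value was 0.38 without nonobese isotype replicate 2 and also without obese isotype replicate 2. With anti–PD-1 it passed without nonobese anti–PD-1 replicate 1, at 0.83, against 13.5% of all genes in either direction. Cox8b (chr7:140898942-140900446) had 3 to 25 counts per tumor, 0.143 to 1.19 CPM, and its lowest and highest values both came from obese isotype tumors. Its RefSeq window holds TATAAA starting 5 bases after the annotated start.

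The tumors differed widely in skeletal muscle markers. The marker sum ran from 8.90 CPM in nonobese anti–PD-1 replicate 1 to 640 CPM in obese anti–PD-1 replicate 3, and Acta1, the skeletal muscle actin, from 1.27 to 184 CPM. At these ends Cox6a2 was at 2.03 and 0.912 CPM, Cox7a1 at 3.05 and 3.33 CPM and Cox8b at 0.813 and 0.547 CPM. With anti–PD-1 in obese mice, 3 of 10 muscle markers were higher at an unadjusted P below 0.05, against 4.3% of all genes, while the log2 fold changes of the isoforms were 0.23, 0.27 and -0.067, none of which passed. Between diets with isotype the median log2 fold change of the muscle markers was -2.07, with none passing, while that of Cox6a2 was -0.84, of Cox7a1 0.65 and of Cox8b 0.19. The brown adipocyte gene Ucp1 had 0 counts in all tumors.

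**Figure D5:**
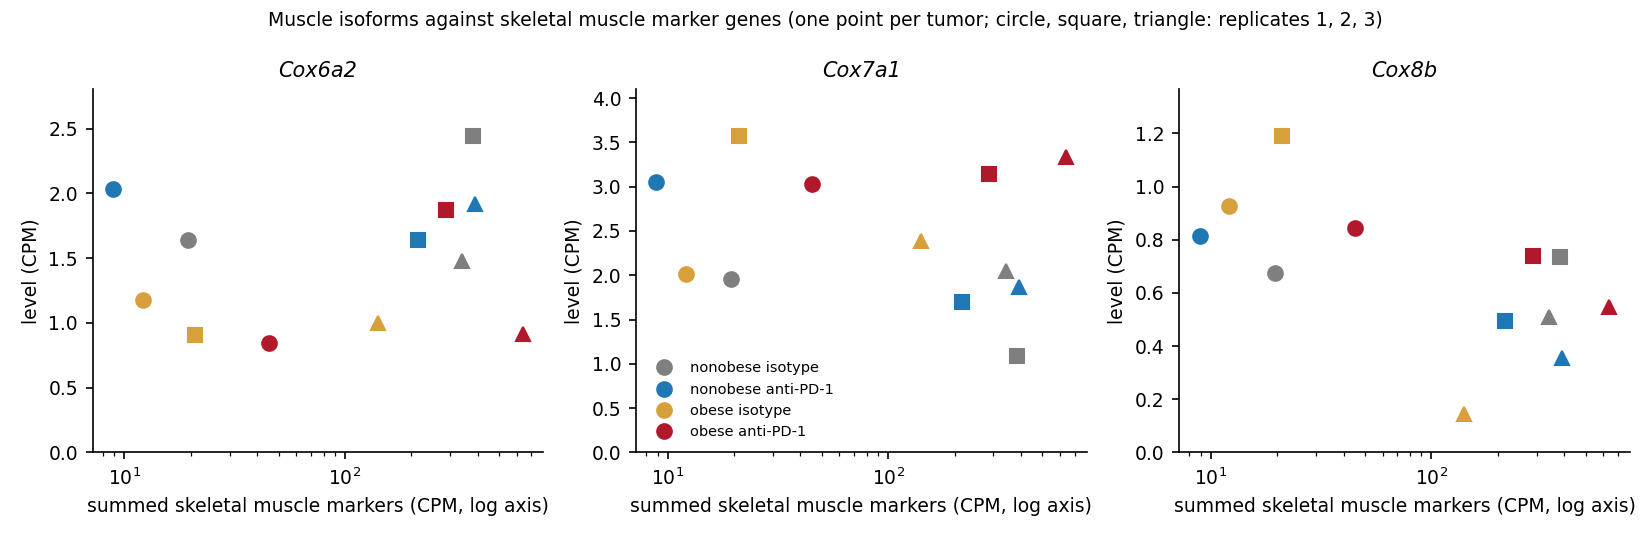
Level of the 3 muscle isoforms (CPM) against the summed level of 10 skeletal muscle marker genes (CPM, log axis), one point per tumor colored by group. The markers span 8.90 to 640 CPM, while Cox6a2 stays between 0.846 and 2.44 CPM and Cox8b between 0.143 and 1.19 CPM.

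The other isoforms were low as well. Cox4i2, the alternative form of subunit 4 found in lung, was at 0.420 to 1.51 CPM, and Ndufa4l2, a hypoxia-induced relative of Ndufa4, at 3.57 to 8.67 CPM, both with overlapping groups in all comparisons but 1. The exception was Cox4i2 between diets with isotype, where all 3 obese tumors (0.799, 0.420 and 0.716 CPM) were below the nonobese tumors (1.51, 0.941 and 0.852 CPM) at an unadjusted P of 0.131 (FDR = 0.492 by edgeR). Of all genes, 9.02% were separated downward in this comparison, and Cox4i2 had only 6 to 47 counts per tumor. Cox7a2l, which helps complexes III and IV assemble into supercomplexes, was the abundant one at 81.7 CPM per kb. Cox6b2 had 0 to 3 counts per tumor, and Cox7b2 and Cox8c had 0.

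Genes around the complexes were taken from lists. Of 6 nuclear subunits and cytochromes outside the symbol rule, such as Cyc1 and Cycs, and of 3 carriers of ADP, ATP and phosphate, none passed an unadjusted P of 0.05 in any comparison, against 5.23% to 13.3% of all genes, a share too low to read anything from lists of this size. The 6 genes summed to 953, 789 and 634 CPM in nonobese anti–PD-1 tumors and to 752, 1026 and 775 CPM in obese isotype tumors, the order of the core subunits. Among 42 tested assembly factors, 1 passed in the obese response (Tmem186, lower), 1 between diets with each antibody, and 2 in the difference between responses, against 7.57%, 13.3% (isotype), 10.3% (anti–PD-1) and 12.9% of all genes. The clearest was Cox10, which makes the heme A of complex IV, at 56.6, 67.9 and 71.2 CPM in nonobese and 53.8, 43.4 and 46.3 CPM in obese mice with isotype. It was lower with a log2 fold change of -0.45 (SE 0.12, unadjusted P = 0.00207, FDR = 0.205 by edgeR). Its groups did not overlap, against 9.02% of all genes separated downward. The other 2 assembly factors in these counts were Tmem186 (diet under anti–PD-1, lower) and Ttc19 (difference between responses, lower). The Ttc19 value was -0.42, and its call was lost with a replicate block (-0.42) and with the filter at 10 counts (-0.37). It held in 5 of 12 fits that left out a tumor. In the obese response Tmem186 was at -0.34, and its call held in 6 of 11 alternatives (values from -0.38 to -0.31) and in 5 of 12 fits that left out a tumor.

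Among 16 tested regulators of mitochondrial genes, 4 passed between diets with isotype, against 13.3% of all genes. In other comparisons 2 calls were made, Ppargc1b lower between diets under anti–PD-1 and Gabpa lower in the difference between responses, against 10.3% and 12.9% of all genes. The coactivators Ppargc1b (log2 fold change -0.63, unadjusted P = 0.0199, FDR = 0.314) and Pprc1 (-0.50, unadjusted P = 0.00996, FDR = 0.279) were lower in obese mice. The GABP subunit genes Gabpa (0.37, unadjusted P = 0.0136, FDR = 0.290) and Gabpb1 (0.27, unadjusted P = 0.0413, FDR = 0.363) were higher, all by edgeR. Gabpb1 passed in only 5 of 11 alternatives and 2 of 12 fits that left out a tumor, and Gabpa in 11 of 11 and 11 of 12. Pprc1 was at 86.9, 103 and 98.2 CPM in nonobese and 75.3, 57.5 and 70.2 CPM in obese mice, and Gabpa at 46.1, 40.7 and 41.1 against 52.9, 58.3 and 54.2 CPM. Both were thus separated between these groups, against 9.02% of all genes separated downward and 10.4% upward. The core median in this comparison was 0.017. Ppargc1a, the gene of PGC-1α, was far more abundant than Ppargc1b, at 154 to 244 CPM, and did not pass in any comparison. In nonobese anti–PD-1 tumors it was at 161, 199 and 244 CPM, the reverse of the core subunit sums of 19294, 15452 and 12917 CPM. This order was not seen in obese isotype tumors, where it was at 154, 192 and 205 CPM and the core sums were 15233, 19034 and 15345 CPM. Of 17 genes of pyruvate dehydrogenase and the citrate cycle, 1 passed between diets with isotype, against 13.3% of all genes. It was Suclg2 (log2 fold change 0.32, unadjusted P = 0.00647, FDR = 0.250 by edgeR), which makes succinyl-CoA synthetase. Suclg2 was also lower in the difference between responses (-0.35), against 12.9% of all genes. That call held in 10 of 10 alternatives but in 7 of 12 fits that left out a tumor.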

How the data were processed

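RNA was sequenced from 12 B16-F10 tumors, 3 in each of 4 groups given by the labels. The authors prepared stranded mRNA libraries, read single ends of 100 bp, checked reads with FastQC 0.11.5, aligned them to mm10 with STAR 2.7.0f and counted them per gene with HTSeq 0.9.1 (versions from the submitters' processing notes). They deposited raw counts, whole numbers per gene without normalization. The strand setting and annotation used for counting are not given in the sources used here, so overlapping genes are uncertain.

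Here, filterByExpr of edgeR 4.0.16 kept 13095 of 23420 genes. Counts were scaled by TMM (factors 0.951 to 1.09) and fitted with 4 group means (8 residual degrees of freedom) by the quasi-likelihood F-test (legacy form, run under R 4.3.3), with Benjamini-Hochberg FDR over all genes. Standard errors and 95% intervals were derived from the F statistic. The thresholds of the study, fold change above 2 and unadjusted P below 0.05, were used beside P alone. With 3 against 3 tumors, the smallest P of an exact two-sided permutation test is 0.1. Between 14022929 and 33871843 counts per tumor set the precision, and intervals for low genes are wide. Reads carried no molecular identifiers. Marker and list sums are sums of CPM. Transcript lengths were taken from GENCODE vM21 (longest coding transcript), and coordinates and promoter windows from RefSeq for GRCm38.p6, the assembly behind mm10. The code was tested on simulated data.

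Named genes were members with an unadjusted P below 0.05, the muscle isoforms, Cox4i2 and Ndufa4l2, catalytic subunits, the highest and lowest member of each complex, and list genes with a fold change above 2 and P below 0.05 or the highest mean CPM. Cell type marker genes that met this rule were mostly not named and are given as counts and sums of their lists. Other named genes, such as the member with the smallest P of each comparison, members that passed only without a tumor or under another scaling, and list genes that passed P alone, were chosen after values were seen. The values of 1 member are not reported here. The members and lists were chosen with earlier results of these data known. The alternatives were DESeq2 1.42.0, RLE, upper-quartile and library-total scaling, 2 other filters, the current and robust forms of the fit, models of 6 tumors, a replicate block, leaving out each tumor, and scaling within length classes.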

Additional observations from a re-analysis of the deposited data

How the results depend on the processing

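The median log2 fold changes of the core subunits moved by less than the spread between tumors (SD 0.18) under every alternative and every left-out tumor. That spread includes the 3 tumors that stood apart, so this does not show that the medians are stable. All medians lay close to 0, and each changed sign in 1 or 2 of the 12 left-out fits. They also changed sign in 2 (obese response) and 4 (diet with isotype) of 11 alternatives. Over the left-out tumors they ranged from -0.21 to 0.060 (nonobese response), -0.033 to 0.15 (obese response), -0.13 to 0.078 (diet with isotype), -0.019 to 0.24 (diet with anti–PD-1) and -0.020 to 0.25 (difference between responses). The number of members with an unadjusted P below 0.05 ranged, in the same order and over the left-out tumors, from 0 to 14, 0 to 2, 0 to 6, 0 to 20 and 0 to 13 of 80, while 2.39% to 8.73%, 5.01% to 10.8%, 6.99% to 16.5%, 7.16% to 13.5% and 8.76% to 16.9% of all genes passed in these fits. With scaling within length classes it was 2 in the nonobese response, 7 for diet with isotype and 1 in the difference between responses, against 5.83%, 15.6% and 14.2% of all genes. With only the 6 tumors compared it was 1 in the obese response and 4 for diet with isotype, against 7.42% and 13.8% of all genes. With DESeq2 it was 2 in the difference between responses (Atp5o and Ndufv3) and 3 for diet with isotype, the core subunit Ndufv1 (lower) included, against 13.2% and 13.998% of all genes.

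Among muscle isoforms, the log2 fold change of Cox6a2 in the nonobese response, close to 0, turned to 0.020 with library totals, 0.019 with the filter at 1 count, 0.038 with the replicate block and 0.061 within length classes, and ranged from -0.13 to 0.25 over the left-out tumors. For diet with isotype Cox6a2 no longer passed with the replicate block (-0.80) or within length classes (-0.82), and ranged from -0.99 to -0.60 over the left-out tumors. Its other ranges were -0.22 to 0.44 (obese response), -1.08 to -0.41 (diet with anti–PD-1) and -0.22 to 0.44 (difference between responses). Cox7a1 ranged from 0.085 to 0.54 (nonobese response), 0.12 to 0.53 (obese response) and 0.38 to 0.79 (diet with isotype). For diet with anti–PD-1 it ranged from 0.37 to 0.83, and in the difference between responses from -0.28 to 0.20. Cox8b turned to 0.091 with the replicate block in the obese response and ranged from -0.56 to 0.38 there, -0.26 to 0.68 (diet with isotype) and -0.32 to 0.62 (difference between responses). Its remaining ranges were -0.59 to -0.031 (nonobese response) and 0.15 to 0.70 (diet with anti–PD-1). Atp5s kept its call for diet with isotype in 9 of 11 alternatives and 7 of 12 left-out fits, Gabpb1 in 5 and 2, and Tmem186 in the obese response in 6 and 5. Ttc19 kept its call in the difference between responses in 8 of 10 alternatives and 5 of 12 left-out fits. Cox8b could not be tested with the filter at 10 counts in every tumor. The cause of these differences was not tested.

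The labels share replicate numbers across groups. Deviations of tumors with the same number had a mean correlation of 0.13 (18 pairs, -0.26 to 0.56) against -0.062 for other pairs (36), and 5 of 12 tumors correlated best with their own number, so the numbers were not taken to pair the tumors. With the replicate block Atp5s and Cox6a2 no longer passed for diet with isotype, 1 other member, the core subunit Sdhc, did (higher), against 12.6% of all genes, and 0 passed in the other 4 comparisons, against 5.26% to 12.3%. Depth limits Atp5l, Cox8b and Cox4i2 most, with 8 to 37, 3 to 25 and 6 to 47 counts per tumor.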
